A study of Rattus norvegicus with 16 samples.

Results

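The genes described are the antioxidant and NRF2 target genes of the rat kidney, chosen as the rows of the deposited gene table whose symbol is on a list of 42 symbols. The list covers the NRF2 sensor, detoxifying enzymes, haem and iron handling, glutathione, thioredoxin, peroxiredoxins, superoxide dismutases, catalase, pentose phosphate enzymes and a superoxide-producing oxidase. Of the 42 symbols, 40 have a row among the 35849 genes of the table. Pgd and Srxn1 have none under those symbols. A row without a matching symbol, ENSRNOG00000031167, is described in the table as sulfiredoxin 1, and its values are given beside the members without being counted among them. RNA of 16 kidneys was sequenced, from 4 male Sprague Dawley rats in each of 4 groups. Rats were 6 to 8 weeks old at the start. The normal group was injected with citrate buffer and ate a normal diet. The DN (diabetic nephropathy) group was injected with streptozotocin at 45 mg/kg, which destroys pancreatic beta cells, kept only if blood glucose went over 16.7 mmol/L, and fed a diet high in glucose and fat, and its rats received vehicle by gavage. Both SIN groups had the same injection, selection and diet as the DN group, and received sinomenine (SIN), an alkaloid, by gavage each day over 8 weeks at 20 or 40 mg/kg in place of vehicle. Streptozotocin and diet go together in these groups, so their effects cannot be told apart. The model is diabetes by loss of insulin-producing cells with a rich diet, in males only.

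NRF2, encoded by Nfe2l2, is a transcription factor that KEAP1 binds and sends for degradation by the proteasome. Electrophiles and oxidants modify cysteines of KEAP1, NRF2 then accumulates, enters the nucleus and binds antioxidant response elements near genes for glutathione synthesis, quinone reduction, haem breakdown and NADPH supply. NRF2 protein is controlled mainly by its stability, so its transcript is not a measure of its activity. The tubules of the kidney use much oxygen and hold much of this enzyme set, and oxidative stress has long been studied in diabetic kidney disease.

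Promoters of 35 of the 42 symbols were matched in RefSeq (assembly GRCr8), each as 250 bases before and 50 bases after the start. Both strands were searched for TGACNNNGC, the core of the antioxidant response element, and for TGACTCA, the AP-1 site, which can lie inside the former. The core was in 8 of the 35 member windows (22.9%) and in 12.2% of all 27457 promoters. The AP-1 site was in 2 member windows (5.71%), those of Srxn1 and Prdx1, and in 4.53% of all promoters. The 8 windows with the core were those of Nfe2l2, Ugdh, Gclm, Gpx2, Prdx1, Prdx4, Prdx5 and Sod2. Of the 10 members that rose in the DN group, 8 had a window and 1, Prdx5, held the core. Hmox1, Fth1, Ftl1, Gsr, Txnip, Prdx6 and Sod3 were not matched. Printed below are Nqo1 (chr19:52220218-52220517, minus strand), a textbook NRF2 target that rose with no core in this window, Prdx5 (chr1:213531978-213532277, minus strand), the riser with the core, and Gclm (chr2:213031885-213032184, plus strand) and Prdx1 (chr5:135383656-135383955, plus strand), which hold the core and did not pass the test. Capitals mark the core, in all 3 on the strand opposite to the one printed. It begins 1 base before the start in Prdx5, 172 before it in Gclm and 135 before it in Prdx1, where it is TGACTCAGC and overlaps the AP-1 site.
Nqo1: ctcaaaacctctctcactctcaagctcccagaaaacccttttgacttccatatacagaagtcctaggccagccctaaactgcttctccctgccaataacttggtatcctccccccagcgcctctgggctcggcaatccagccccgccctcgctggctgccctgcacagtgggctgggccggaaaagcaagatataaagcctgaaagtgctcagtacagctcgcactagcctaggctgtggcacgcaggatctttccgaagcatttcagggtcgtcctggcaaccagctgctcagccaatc
Prdx5: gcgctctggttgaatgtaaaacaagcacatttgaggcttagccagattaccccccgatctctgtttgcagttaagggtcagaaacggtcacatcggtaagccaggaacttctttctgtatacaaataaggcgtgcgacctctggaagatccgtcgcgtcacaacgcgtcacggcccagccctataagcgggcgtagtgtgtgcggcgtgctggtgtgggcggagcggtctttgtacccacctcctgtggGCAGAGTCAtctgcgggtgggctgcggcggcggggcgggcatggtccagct
Gclm: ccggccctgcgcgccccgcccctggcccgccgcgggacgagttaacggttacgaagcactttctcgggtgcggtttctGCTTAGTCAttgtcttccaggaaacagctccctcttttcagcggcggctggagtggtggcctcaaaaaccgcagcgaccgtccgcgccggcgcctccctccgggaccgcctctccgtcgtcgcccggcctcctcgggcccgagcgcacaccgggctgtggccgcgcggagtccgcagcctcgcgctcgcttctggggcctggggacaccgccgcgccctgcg
Prdx1: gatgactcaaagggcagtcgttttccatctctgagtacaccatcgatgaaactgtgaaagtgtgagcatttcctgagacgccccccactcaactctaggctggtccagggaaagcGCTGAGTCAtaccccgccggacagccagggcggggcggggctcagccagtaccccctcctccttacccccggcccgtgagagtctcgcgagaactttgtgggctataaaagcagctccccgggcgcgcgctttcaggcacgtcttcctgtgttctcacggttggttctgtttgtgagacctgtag
A match describes these letters only, and elements that lie farther from the start are outside these windows.

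Total estimated counts per rat ran from 19616312 to 25217030. Markers of the proximal tubule, the thick ascending limb, the collecting duct and the podocyte were present in every rat. Summed thick ascending limb markers were lower in every SIN rat than in every normal rat, from 3654 to 4840 CPM in normal, from 2087 to 3773 in DN, from 3095 to 3237 with 20 mg/kg SIN and from 2427 to 3396 with 40 mg/kg. Summed adipocyte markers were higher in every DN rat and every rat given 20 mg/kg than in every normal rat, from 59.4 to 66.7 CPM in normal, from 83.7 to 126 in DN, from 95.8 to 146 with 20 mg/kg SIN and from 63.9 to 124 with 40 mg/kg. DN replicate 3 stood apart in RNA of the urinary lining and of muscle. Its summed urothelium markers were 80.2 CPM, followed by 35.9 in normal replicate 1 and at most 11.5 in any other rat. Its summed muscle markers were 699 CPM (at most 278 in any other DN rat). Summed proximal tubule markers ran from 9481 to 12720 CPM in the normal group and from 6812 to 10660 CPM in the DN group, with the lowest value in DN replicate 1. Summed tubular injury markers (Havcr1, Lcn2, Spp1, Krt8, Krt18 and Vcam1) ran from 331 to 677 CPM in the normal group, from 666 to 1250 CPM in DN, from 858 to 2127 CPM with 20 mg/kg SIN and from 613 to 1445 CPM with 40 mg/kg. Their part in the results was not tested. The serial numbers of the libraries are consecutive within each group, so a library batch and the condition cannot be told apart. In whole kidney, fewer cells of a type and less RNA per cell cannot be told apart either.

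Values are CPM, counts scaled to the depth of the library with TMM factors over the 16 rats, and values of single rats are listed in the order of replicates 1 to 4. Means are ± SD over the 4 rats of a group. Log2 fold changes are ± SE and come, like the p-values adjusted over all genes tested, from the quasi-likelihood test of edgeR in a fit of the 2 groups compared. A gene is said to have risen or fallen where the adjusted p was under 0.05.

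Per kilobase of gene length, the most abundant member was Gpx3, the secreted plasma glutathione peroxidase made by proximal tubule cells, at a mean of 12423 CPM per kilobase over all rats. The ferritin heavy chain Fth1 followed at 4345, the ferritin light chain Ftl1 at 2069, the catalytic subunit of glutamate-cysteine ligase Gclc at 1243 and the cytosolic glutathione peroxidase Gpx1 at 767 CPM per kilobase. At the other end stood Nqo1 at 10.2, the phagocyte oxidase subunit Cybb at 4.92 and the cystine transporter Slc7a11 at 0.008 CPM per kilobase. Hmox1 had a mean of 31.9 CPM per kilobase over all rats but 3.87 without DN replicate 1, which put it below Cybb and above Slc7a11 alone. Slc7a11 did not exceed 0.304 CPM in any rat, did not pass the filter on low counts, and left 39 members tested.

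**Figure D1:**
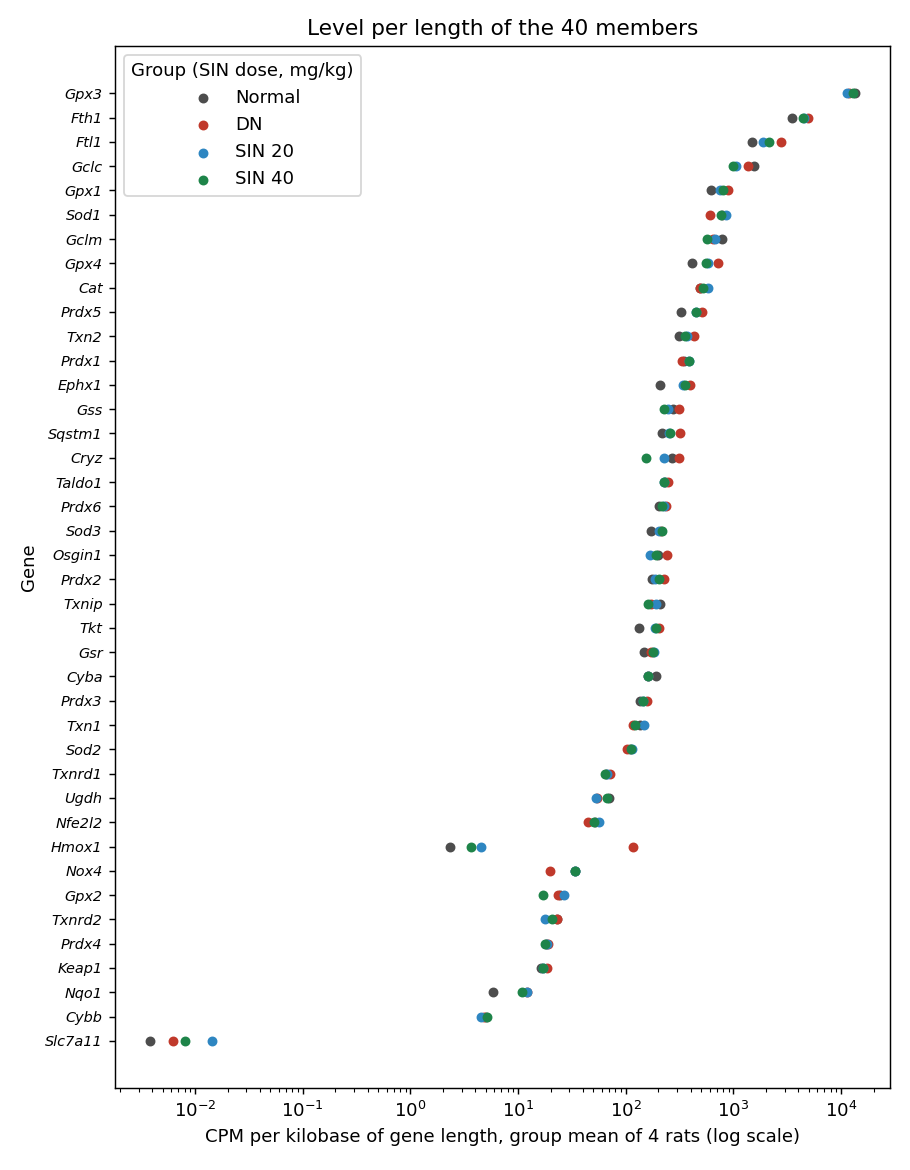
Group mean of 4 rats for each of the 40 members, in CPM per kilobase of gene length on a log axis, with colours for the groups. Gpx3 is at the top and Slc7a11 at the bottom in every group, and the DN mean of Hmox1 is far from its other 3 means because of 1 rat.

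The first question was how these genes differed between the diabetic kidney given vehicle and the normal kidney. In the DN group 10 of the 39 tested members rose and 0 fell compared with the normal group (25.6%, against 19.5% of all 15775 genes called, 8.74% higher and 10.8% lower). They were Nqo1, Ephx1, Sqstm1, Hmox1, Ftl1, Gpx4, Txn2, Prdx2, Prdx5 and Tkt. At an unadjusted p under 0.05 there were 12 members higher and 3 lower (38.5% of members, against 36.9% of all genes, 17.5% higher and 19.4% lower). The DN rats did not overlap the normal rats for 10 members above and 1 below (28.2%, against 24.3% of all genes, 11.2% above and 13.1% below). Of all 39, 24 had a positive and 15 a negative log2 fold change, with a median of 0.17, and the median of all genes was 0.0016. By DESeq2, 11 members were called higher and 1, Nox4, lower, with Gpx1 and Fth1 added and no adjusted p for Hmox1. That is 31.6% of the 38 members with an adjusted p, against 27.2% of all genes, 13.1% higher and 14.2% lower. The number of calls by edgeR was 5 without normal replicate 3 (12.8% of members, against 6.19% of all genes) and 5 without normal replicate 4 (12.8%, against 4.81%). The calls over all genes were 987 and 769 in these fits and 3074 with all rats, and the median member without DN replicate 4 was at 0.042. Nqo1, Ftl1, Gpx4 and Prdx5 kept an adjusted p under 0.05 in all 15 alternative settings.

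The second question was whether SIN moved them in diabetic rats. Compared with the DN group, 0 of 39 members passed the edgeR test at 20 mg/kg (0% of all 15724 genes) and 0 of 39 at 40 mg/kg (0% of all 15530 genes). At an unadjusted p under 0.05 there were 4 members higher and 8 lower at 20 mg/kg (30.8%, against 15.4% of all genes, 9.2% higher and 6.24% lower), and 1 higher and 8 lower at 40 mg/kg (23.1%, against 17.1%, 9.9% higher and 7.21% lower). The rats did not overlap the DN rats for 1 member above and 3 below at 20 mg/kg (10.3%, against 8.99% of all genes, 5.34% above and 3.65% below), and for 3 members below at 40 mg/kg (7.69%, against 10.4%, 6.43% above and 3.99% below). The smallest adjusted p among the members was 0.27 at 20 mg/kg and 0.196 at 40 mg/kg. DESeq2 called 1 member at 20 mg/kg, Ftl1 (adjusted p = 0.049), and 3 at 40 mg/kg, Cryz (0.0173), Gpx4 (0.0214) and Gss (0.0247), all lower than in the DN group. That is 2.63% of members at 20 mg/kg, against 1.57% of all genes with 0.682% lower, and 7.89% at 40 mg/kg, against 2.82% with 1.28% lower. The median log2 fold change of the members was -0.10 at 20 mg/kg, with 28 of 39 negative, and -0.13 at 40 mg/kg, with 26 of 39 negative, while the medians of all genes were -0.0074 and 0.0067. The DN rats are shared by these comparisons and by that of DN with normal, so a DN value that is high by chance makes a member high in one and low in the others.

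**Figure D2:**
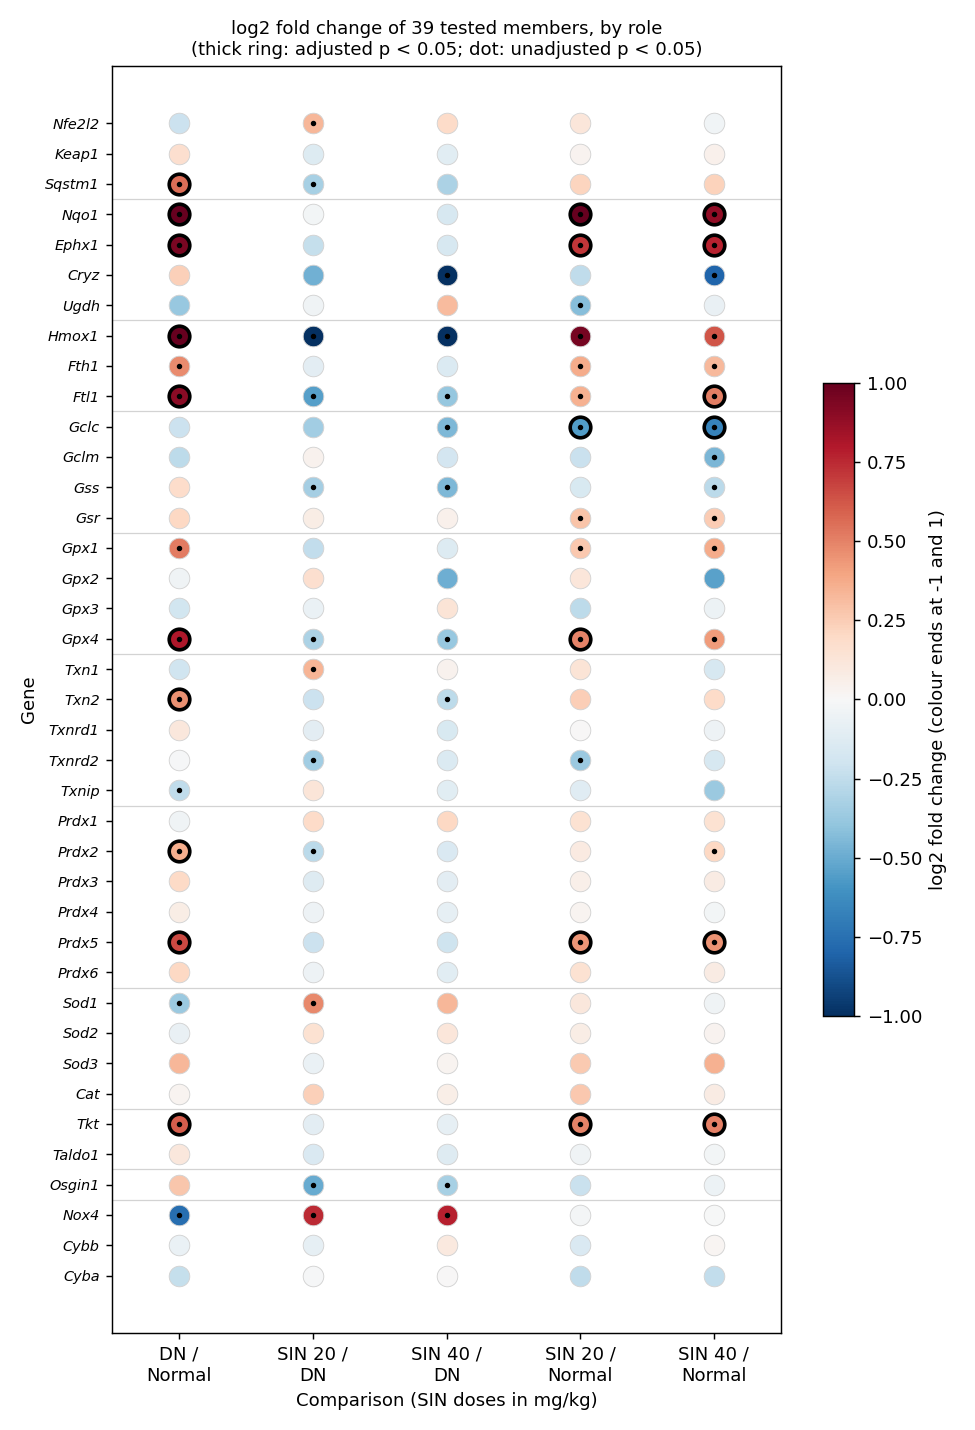
Log2 fold changes of the 39 tested members (rows, grouped by role) in 5 comparisons (columns), with colour from -1 to 1 and values beyond drawn at the ends. Thick rings mark an adjusted p under 0.05 and dots an unadjusted p under 0.05: rings are seen in the comparisons with the normal group (10, 6 and 6) and not in the columns of SIN over DN.

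Among the sensor and adaptor genes none but Sqstm1 passed the test in any comparison. Nfe2l2 was at 119.6, 118, 129 and 112 CPM in the normal rats and 92.4, 94.8, 108 and 116 in the DN rats. In the SIN (20 mg/kg) rats it was at 134, 134, 139 and 114 CPM, and in the SIN (40 mg/kg) rats at 129, 120.2, 106 and 114. The 4 ranges overlap, with the DN rats at the low end. Its log2 fold change was -0.21 ± 0.10 (adjusted p = 0.155) for DN over normal, 0.33 ± 0.11 (adjusted p = 0.271) for SIN (20 mg/kg) over DN and 0.19 ± 0.10 (adjusted p = 0.374) for SIN (40 mg/kg) over DN. Keap1, the adaptor that carries NRF2 to its ubiquitin ligase, was at 53.1, 58.0, 46.4 and 50.7 CPM in the normal rats and 62.1, 54.1, 59.4 and 58.0 in the DN rats. It was at 46.1, 58.8, 54.4 and 54.1 CPM in the SIN (20 mg/kg) rats and 55.5, 53.7, 56.9 and 49.6 in the SIN (40 mg/kg) rats. These ranges overlap too, and the log2 fold change of DN over normal was 0.17 ± 0.09 (adjusted p = 0.206).

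Sqstm1 encodes p62, an autophagy receptor that binds KEAP1 and is itself an NRF2 target. It was at 441, 518, 359 and 409.7 CPM in the normal rats and at 679.5, 512, 581 and 765 in the DN rats. The lowest DN rat lay just under the highest normal rat. Sqstm1 rose in the DN group by 0.56 ± 0.16 (adjusted p = 0.0343) on the log2 scale, a call that was lost without DN replicate 1 or 4 or without normal replicate 1, 3 or 4 (adjusted p from 0.0635 to 0.0983). In the SIN groups it was at 421, 567, 498 and 538 CPM at 20 mg/kg and 587, 531, 491 and 424 at 40 mg/kg, overlapping both other groups. The log2 fold change over DN was -0.33 (adjusted p = 0.319) at the lower and -0.32 (adjusted p = 0.298) at the higher dose.

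Nqo1 and Ephx1, of the quinone and epoxide group, were higher in all 3 diabetic groups than in the normal group. Nqo1 (ENSRNOG00000012772) reduces quinones by a 2-electron step that makes no semiquinone radical, and its induction is the usual readout of NRF2. It was at 11.5, 8.96, 7.64 and 8.72 CPM in the normal rats and 23.6, 16.03, 16.95 and 20.1 in the DN rats. Every DN rat was above every normal rat, and the mean went from 9.19 ± 1.61 to 19.2 ± 3.44. The log2 fold change was 1.07 ± 0.17 (adjusted p = 0.00667). In the SIN (20 mg/kg) rats Nqo1 was at 10.9, 29.2, 17.01 and 18.6 CPM and in the SIN (40 mg/kg) rats at 16.4, 18.7, 18.9 and 14.2. The former is the widest of the 4 groups, with replicate 1 inside the normal range, and the latter lay above the normal range. Against normal it rose by 1.04 (adjusted p = 0.0473) and 0.89 (adjusted p = 0.0104), and against DN the log2 fold changes were -0.02 ± 0.26 (adjusted p = 0.97) and -0.17 ± 0.15 (adjusted p = 0.584).

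Ephx1, the microsomal epoxide hydrolase, was at 351, 422, 285 and 399 CPM in the normal rats and 731, 501, 857 and 709 in the DN rats. It was at 442, 725, 593 and 629.7 CPM in the SIN (20 mg/kg) rats and 754, 688, 539 and 504 in the SIN (40 mg/kg) rats. All 12 diabetic rats were above all 4 normal rats. The rise over normal was 0.95 ± 0.18 (adjusted p = 0.0114) in DN, 0.71 ± 0.17 (adjusted p = 0.0333) at 20 mg/kg and 0.77 ± 0.16 (adjusted p = 0.0238) at 40 mg/kg, while SIN over DN was -0.23 (adjusted p = 0.537) and -0.17 (adjusted p = 0.655). Cryz, a zeta-crystallin with quinone reductase activity, had means of 509 ± 149.6 CPM in normal, 596 ± 214 in DN, 429 ± 131 under 20 mg/kg SIN and 294 ± 80.1 under 40 mg/kg. Normal replicate 1, at 732 CPM, was far above the other normal rats. Its log2 fold change of SIN (40 mg/kg) over DN was -1.02 ± 0.29 (adjusted p = 0.199), with overlapping rats. Over normal it was -0.80 ± 0.24 (adjusted p = 0.0771) at 40 mg/kg, with every SIN (40 mg/kg) rat below every normal rat, and DESeq2 called it lower (adjusted p = 0.00903). Ugdh, which makes the UDP-glucuronic acid used for conjugation, had means of 163 ± 21.5 CPM in normal, 125 ± 32.3 in DN, 122 ± 22.7 under 20 mg/kg SIN and 155 ± 15.3 under 40 mg/kg, and no comparison of it passed the test.

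In the haem and iron group one rat set the group mean. Hmox1 (ENSRNOG00000014117) encodes haem oxygenase 1, which opens haem to biliverdin, carbon monoxide and iron. It was at 2.56, 4.84, 3.20 and 4.09 CPM in the normal rats and 707, 8.19, 11.3 and 5.57 in the DN rats. It was at 6.02, 9.74, 7.29 and 5.46 CPM in the SIN (20 mg/kg) rats and 6.39, 5.86, 5.13 and 5.32 in the SIN (40 mg/kg) rats. DN replicate 1, with 15981 estimated counts, was 62.5 times the next rat and 127 times the median of the other 15 rats, which was 5.57 CPM. The exact Poisson 95% interval of its value, for counting error only, was 696 to 718 CPM. The other 3 DN rats had a mean of 8.36 ± 2.88 CPM (n = 3), and every one of the 12 diabetic rats was above every normal rat.

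**Figure D3:**
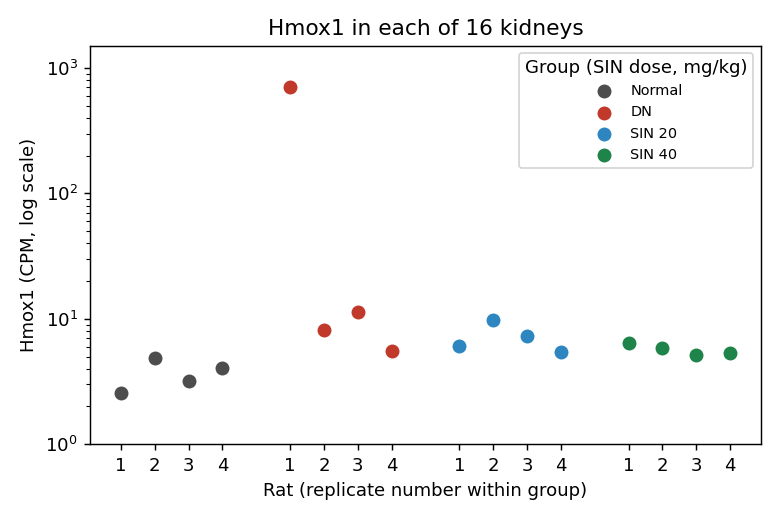
Hmox1 in each of the 16 rats, in CPM on a log axis, by group and replicate number. DN replicate 1 is at 707 CPM, and the other 15 rats lie between 2.56 and 11.3 CPM.

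With all rats, Hmox1 rose in the DN group by 5.64 ± 1.63 (adjusted p = 0.0395) on the log2 scale, a value that the single rat made. Without DN replicate 1 the log2 fold change was 1.19 (adjusted p = 0.0385). With that rat but without normal replicate 1, 2, 3 or 4 the call was lost (adjusted p from 0.0679 to 0.107). It was also lost with a block for the replicate number (2.26, adjusted p = 0.271). The same held without both DN replicates 1 and 3 (0.91, adjusted p = 0.1155), an alternative chosen after seeing the data. SIN over DN had log2 fold changes of -4.68 ± 1.53 (adjusted p = 0.271) at 20 mg/kg and -5.01 ± 1.57 (adjusted p = 0.204) at 40 mg/kg. Without DN replicate 1 they were -0.24 (adjusted p = 0.732) and -0.58 (adjusted p = 0.383), so the large negative values come from that rat. Over normal, Hmox1 had log2 fold changes of 0.96 ± 0.25 (adjusted p = 0.0522) at 20 mg/kg and 0.63 ± 0.22 (adjusted p = 0.119) at 40 mg/kg. The difference at 20 mg/kg passed with DESeq2 (adjusted p = 0.00766) and with a minimum of 10 counts in each rat (adjusted p = 0.0467). It also passed with a block for the replicate number (adjusted p = 0.0453) and without normal replicate 2 (adjusted p = 0.043). Without any other rat of these groups the adjusted p ran from 0.0511 to 0.154, and in the fit of all 16 rats it was 0.706. DESeq2 gave no adjusted p for Hmox1 in the comparisons with DN.

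The rat with the far Hmox1 value was examined across all genes and across the members. With a gap of at least 2 on the log2 scale between a rat and the next highest of the 16, there were 2 genes in DN replicate 1, Hmox1 and Lexm. The counts of such genes in the other rats ran from 0 to 15, with 12 in DN replicate 3 and 15 in SIN (40 mg/kg) replicate 4. Lexm had 8.01 CPM in this rat and no more than 0.557 CPM elsewhere. Next by size of gap among the genes with a symbol were Cdhr1 (9.91 CPM, next rat 3.13), AABR07051741.1 (3.36, next 1.20), Acsl6 (2.43, next 0.961), Kcnj4 (3.72, next 1.52), Trim29 (10, next 4.30) and Dnah11 (16.7, next 7.33). Genes that flank Hmox1 in RefSeq, chosen after these values were seen, were inside or at the edge of the range of the other 15 rats: Tom1 at 96.8 CPM (others 61.0 to 99.3) and Mcm5 at 4.51 CPM (others 1.98 to 7.65). Hmgxb4 was at 15.6 CPM, equal to the highest of the others at the digits shown, and Rasd2 at 6.50 CPM (others 3.91 to 24.1). Markers of macrophages, which express Hmox1 when they clear red cells, summed to 174 CPM in that rat and to between 158 and 187 CPM in the DN group. Red cell markers summed to 810.0 CPM there, the highest of the DN group. They summed to as much as 1326 CPM in the SIN (20 mg/kg) group. Slc4a1 is among them and is also on the list of collecting duct markers, so the sum is not specific to red cells. The part of macrophage and red cell markers in the result was not tested.

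Of the 39 other members with a row, 5 were above, 13 below and 21 within the range of the other 3 DN rats in DN replicate 1. The log2 ratio to the median of those rats went from -1.09 for Nox4 to 1.00 for Gpx2. In this rat 4 members, Keap1, Gpx2, Prdx2 and Prdx5, were the highest of the 16 rats, and 8 were the lowest, namely Nfe2l2, Ugdh, Gpx3, Txn1, Sod1, Cat, Nox4 and Cyba. No other member came near the size of the Hmox1 ratio.

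**Figure D4:**
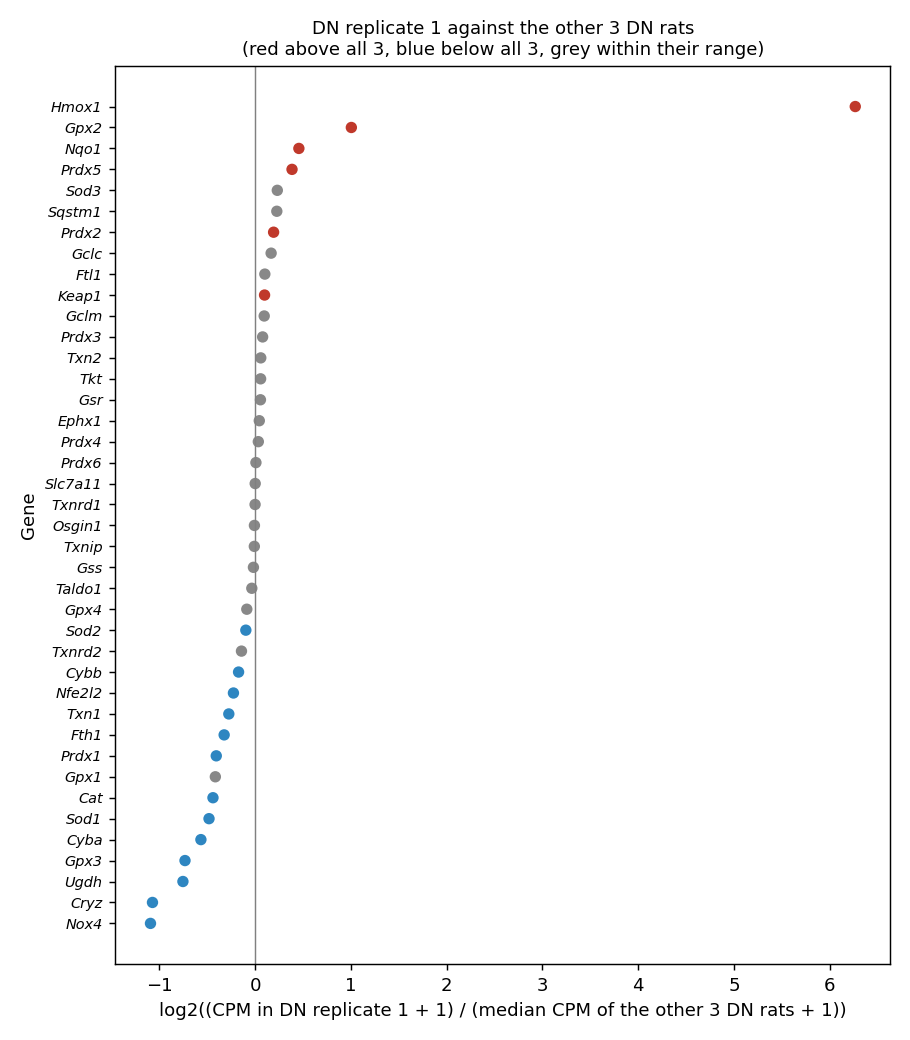
Log2 ratio of CPM + 1 in DN replicate 1 to the median of the other 3 DN rats, for each of the 40 members. Hmox1 is alone above 6, and all other members lie between -1.09 and 1.00.

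Ferritin stores iron in a shell of heavy and light chains, and both transcripts were higher in the DN group. Ftl1 (ENSRNOG00000031506), the light chain, was at 1559, 1292, 1112 and 1426 CPM in the normal rats and 2464, 2227, 2297 and 3074 in the DN rats. The groups were far apart, and the log2 fold change was 0.91 ± 0.15 (adjusted p = 0.00715). In the SIN (20 mg/kg) rats it was at 1279, 1989, 1793 and 1836 CPM and in the SIN (40 mg/kg) rats at 2068, 2111, 1753 and 1776. Every SIN rat lay below every DN rat, with log2 fold changes of -0.55 ± 0.16 (adjusted p = 0.27) and -0.38 ± 0.13 (adjusted p = 0.219) that did not pass the test. Over normal, Ftl1 rose at 40 mg/kg by 0.51 (adjusted p = 0.0462), and the value at 20 mg/kg was 0.35 (adjusted p = 0.23).

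Fth1, the heavy chain with ferroxidase activity, was at 3039, 2982, 2531 and 3147 CPM in the normal rats and 3203, 4011, 3959 and 5019 in the DN rats. It was at 3598, 3640.1, 4109 and 3789 CPM in the SIN (20 mg/kg) rats and 3773, 3880.1, 3724 and 3298 in the SIN (40 mg/kg) rats. All 12 diabetic rats were above the normal rats, but the log2 fold change of DN over normal, 0.47 ± 0.15 (adjusted p = 0.0528), just missed the threshold. It passed without DN replicate 1 (0.57, adjusted p = 0.0383). The ratio of Ftl1 to Fth1 counts within a rat was 0.46 ± 0.04 in normal, 0.63 ± 0.10 in DN, 0.46 ± 0.08 under 20 mg/kg SIN and 0.53 ± 0.04 under 40 mg/kg. Both ferritin genes, Ephx1, Cryz, Gpx4, Prdx1 and Prdx5 had estimated counts that were not whole in all 16 rats. Such counts were also found in 14 rats for Txnrd2, 13 for Gclm, 11 for Gsr and 5 for Gss. They were found in 3 rats for Cat and in 1 each for Sod3 and Slc7a11. This can happen where reads are divided among genes, but the step that gave the counts is not given. The levels of these genes are uncertain to an extent that was not tested.

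In the glutathione synthesis group the limiting enzyme was lower with SIN than in the normal kidney. Gclc (ENSRNOG00000006302), the catalytic subunit of glutamate-cysteine ligase, was at 4651, 4767, 4478 and 5207 CPM in the normal rats and 4592, 4656, 3120.2 and 4092 in the DN rats. It was at 2834, 2975, 3253 and 3903 CPM in the SIN (20 mg/kg) rats and 2709, 2748, 3044 and 3534 in the SIN (40 mg/kg) rats. All 8 SIN rats lay below all normal rats, while the DN rats overlapped both. Summed thick ascending limb markers were also lower in all 8 SIN rats than in all normal rats, and their part in the result was not tested. Gclc was the one member that fell against normal at either dose by edgeR, with log2 fold changes of -0.56 ± 0.12 (adjusted p = 0.0211) at 20 mg/kg and -0.67 ± 0.12 (adjusted p = 0.00871) at 40 mg/kg. Without SIN (20 mg/kg) replicate 2 or 3 or normal replicate 4 the call at 20 mg/kg was lost (adjusted p from 0.0681 to 0.0761), and that at 40 mg/kg held in all 14 alternatives. DN over normal was -0.21 ± 0.14 (adjusted p = 0.305), and SIN over DN was -0.35 ± 0.16 (adjusted p = 0.326) and -0.45 ± 0.15 (adjusted p = 0.219). The direction is opposite to that of Nqo1 and Ephx1, which are NRF2 targets as Gclc is, and NRF2 activity was not tested.

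Gclm, the modifier subunit of the same enzyme, was at 1121, 934, 1213 and 1401 CPM in the normal rats and 1043, 1049, 809 and 977 in the DN rats. It was at 1095, 749, 1059 and 1100.1 CPM in the SIN (20 mg/kg) rats and 792, 727, 818 and 1069 in the SIN (40 mg/kg) rats. All ranges overlap, and the log2 fold changes over normal were -0.26 (adjusted p = 0.206), -0.22 (adjusted p = 0.465) and -0.46 (adjusted p = 0.109) in DN, under 20 mg/kg SIN and under 40 mg/kg. DESeq2 called Gclm lower at 40 mg/kg (-0.45, adjusted p = 0.0329). The ratio of Gclc to Gclm counts was 4.17 ± 0.66 in normal, 4.22 ± 0.27 in DN, 3.29 ± 0.60 under 20 mg/kg SIN and 3.56 ± 0.23 under 40 mg/kg. Gss, glutathione synthetase, was at 600.1, 608, 451 and 670.5 CPM in the DN rats and at 432, 398, 435 and 441 in the SIN (40 mg/kg) rats, which were all lower. The normal rats were at 518, 572, 419 and 546 CPM and the SIN (20 mg/kg) rats at 411, 405, 486 and 541. The log2 fold change over DN was -0.45 ± 0.12 (adjusted p = 0.196) at 40 mg/kg and -0.34 ± 0.14 (adjusted p = 0.312) at 20 mg/kg. Gsr, which reduces oxidised glutathione, had means of 207 ± 26.2 CPM in normal, 239 ± 7.70 in DN, 253 ± 24.2 under 20 mg/kg SIN and 248 ± 12.8 under 40 mg/kg, and no comparison passed the test.

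Of the glutathione peroxidases, Gpx4 (ENSRNOG00000013604), which reduces lipid hydroperoxides in membranes, had the smallest adjusted p in DN over normal. It was at 420.4, 462, 359 and 378 CPM in the normal rats and 680.0, 723, 657 and 773 in the DN rats. It was at 480.2, 613, 534 and 656 CPM in the SIN (20 mg/kg) rats and 581, 566, 564 and 464 in the SIN (40 mg/kg) rats. The SIN rats lay in the gap between the groups, above every normal and below every DN rat. DN over normal was 0.81 ± 0.11 (adjusted p = 0.00421). SIN over DN was -0.32 ± 0.12 (adjusted p = 0.29) at 20 mg/kg and -0.38 ± 0.10 (adjusted p = 0.196) at 40 mg/kg, neither past the threshold, and SIN over normal was 0.49 (adjusted p = 0.0466) and 0.42 (adjusted p = 0.0611), of which the first passed it. Gpx1, the cytosolic enzyme, had means of 543 ± 68.0 CPM in normal, 774 ± 253 in DN, 656 ± 67.8 under 20 mg/kg SIN and 705 ± 122 under 40 mg/kg, with a log2 fold change of DN over normal of 0.52 ± 0.21 (adjusted p = 0.108). Gpx3 had means of 19864 ± 4251 CPM in normal, 17345 ± 5235 in DN, 16632 ± 1257 under 20 mg/kg SIN and 19108 ± 4619 under 40 mg/kg, and the gastrointestinal enzyme Gpx2 had means of 24.6 ± 7.31 CPM in normal, 23.8 ± 12.1 in DN, 26.8 ± 7.95 under 20 mg/kg SIN and 16.97 ± 7.61 under 40 mg/kg. Neither passed the test in any comparison.

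In the thioredoxin system the mitochondrial form rose in DN and the cytosolic one did not pass the test. Txn2, mitochondrial thioredoxin, was at 203, 213, 177 and 184 CPM in the normal rats and 279, 268, 235 and 282 in the DN rats, with no overlap. It was at 183, 261, 222 and 254 CPM in the SIN (20 mg/kg) rats and 254, 211, 236 and 188 in the SIN (40 mg/kg) rats, which overlapped both other groups. It rose in DN by 0.46 ± 0.10 (adjusted p = 0.0171), and the call was lost without normal replicate 3 (0.42, adjusted p = 0.0532) or 4 (0.43, adjusted p = 0.0602). Txnrd1, cytosolic thioredoxin reductase and a common NRF2 target, was at 249, 248, 199.5 and 207 CPM in the normal rats and 235, 236, 226 and 277 in the DN rats. It was at 206, 246, 255 and 202 CPM in the SIN (20 mg/kg) rats and 258, 213, 192 and 209 in the SIN (40 mg/kg) rats. All 4 ranges overlap, and DN over normal was 0.11 ± 0.11 (adjusted p = 0.491). Txnip, which binds and inhibits thioredoxin and is induced by glucose in many cells, was at 499.8, 632, 571 and 566 CPM in the normal rats and 478, 447, 494 and 481 in the DN rats. Every DN rat was below every normal rat, with a log2 fold change of -0.25 ± 0.10 (adjusted p = 0.0981) that did not pass the test. In the SIN rats it was at 406, 649, 480.1 and 550.1 CPM at 20 mg/kg and 619, 327, 337 and 475 at 40 mg/kg. Both of these ranges overlap those of the normal and DN groups. The cytosolic thioredoxin Txn1 had means of 42.6 ± 3.26 CPM in normal, 37.0 ± 5.69 in DN, 47.0 ± 6.64 under 20 mg/kg SIN and 38.0 ± 2.54 under 40 mg/kg, and its log2 fold change was -0.20 (adjusted p = 0.263) for DN over normal and 0.34 (adjusted p = 0.308) for SIN (20 mg/kg) over DN. Txnrd2, the mitochondrial reductase, had means of 45.3 ± 4.63 CPM in normal, 44.6 ± 4.24 in DN, 35.1 ± 7.29 under 20 mg/kg SIN and 40.4 ± 3.10 under 40 mg/kg and passed the test in no comparison.

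The row described as sulfiredoxin 1, the enzyme that repairs overoxidised peroxiredoxins, was at 1.30, 1.94, 1.80 and 1.07 CPM in the normal rats and 9.56, 5.41, 2.28 and 1.67 in the DN rats. It was at 2.92, 6.88, 8.41 and 2.77 CPM in the SIN (20 mg/kg) rats and 6.23, 4.97, 7.14 and 4.11 in the SIN (40 mg/kg) rats. The DN rats spread widely, with replicate 4 inside the normal range, and all SIN rats were above all normal rats. The log2 fold change over normal was 1.63 ± 0.52 (adjusted p = 0.0526) in DN, 1.77 ± 0.40 (adjusted p = 0.0289) at 20 mg/kg and 1.87 ± 0.27 (adjusted p = 0.00377) at 40 mg/kg. The DN difference passed with DESeq2 (adjusted p = 0.00816), in the fit of all 16 rats (adjusted p = 0.0288), with a minimum of 10 counts (adjusted p = 0.0455) and without DN replicate 3 or 4 (adjusted p = 0.042 and 0.0279), and without DN replicate 1 it was 1.03 (adjusted p = 0.144). It rose in both SIN groups by edgeR, the call at 20 mg/kg being lost without SIN (20 mg/kg) replicate 2 or 3 or normal replicate 1, 3 or 4 (adjusted p from 0.0606 to 0.09). SIN over DN was 0.14 (adjusted p = 0.912) and 0.25 (adjusted p = 0.82).

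Peroxiredoxins reduce peroxides with thiols, and 2 of the 6 rose in the DN group (33.3%, against 19.5% of all genes called, 8.74% higher). A share of 6 genes says little about the family. Prdx5, found in mitochondria, peroxisomes and cytosol, was at 273, 291, 246 and 257 CPM in the normal rats and 519, 425, 341 and 397 in the DN rats. It was at 306, 416, 362 and 371 CPM in the SIN (20 mg/kg) rats and 366, 352, 411 and 328 in the SIN (40 mg/kg) rats. All 12 diabetic rats were above the normal rats, and Prdx5, whose promoter window holds the core shown above, rose over normal by 0.66 ± 0.13 (adjusted p = 0.0131) in DN, 0.44 ± 0.11 (adjusted p = 0.0423) at 20 mg/kg and 0.45 ± 0.10 (adjusted p = 0.0303) at 40 mg/kg. Prdx2, the cytosolic enzyme abundant in red cells, was at 159, 163, 141 and 151 CPM in the normal rats and 219.7, 192, 170.0 and 207 in the DN rats. It was at 136, 187, 157 and 175 CPM in the SIN (20 mg/kg) rats and 179, 178, 193 and 159 in the SIN (40 mg/kg) rats. The DN rats were all above the normal rats, and the SIN rats overlapped both. The rise in DN was 0.36 ± 0.10 (adjusted p = 0.0353) and was lost without DN replicate 1, 2 or 4 or normal replicate 1, 3 or 4 (adjusted p from 0.0652 to 0.0985). Red cell markers summed to between 573 and 1101 CPM in the normal and between 354 and 810.0 CPM in the DN group, ranges that overlap, and their part in the result was not tested.

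Prdx1, Prdx3, Prdx4 and Prdx6 passed the test in no comparison. Prdx1, whose window holds both motifs, had means of 306 ± 75.4 CPM in normal, 297 ± 86.7 in DN, 340.1 ± 59.5 under 20 mg/kg SIN and 342 ± 40.1 under 40 mg/kg. Prdx6 was higher in every DN rat than in every normal rat, with a log2 fold change of 0.21 ± 0.09 (adjusted p = 0.14). Mitochondrial Prdx3 had a log2 fold change of 0.20 (adjusted p = 0.168) and Prdx4 of the endoplasmic reticulum one of 0.08 (adjusted p = 0.71).

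The superoxide dismutases and catalase had 0 of 4 members past the edgeR test in any comparison (0% to 19.5% of all genes). In DN over normal 1 of the 4 was at an unadjusted p under 0.05 (36.9% of all genes). In SIN (20 mg/kg) over DN 1 was as well (15.4% of all genes), in both cases Sod1. DESeq2 called 0 of them (0.112% to 27.2% of all genes). Sod1, the copper and zinc enzyme of the cytosol, was at 504, 454, 461 and 630.3 CPM in the normal rats and 298, 395, 417 and 472 in the DN rats. It was at 650.0, 565, 528 and 478 CPM in the SIN (20 mg/kg) rats and 572, 413, 594 and 416 in the SIN (40 mg/kg) rats. All rats given 20 mg/kg lay above the DN range. The log2 fold change was -0.37 ± 0.16 (adjusted p = 0.125) for DN over normal, 0.48 ± 0.15 (adjusted p = 0.27) for SIN (20 mg/kg) over DN and 0.34 ± 0.17 (adjusted p = 0.344) for SIN (40 mg/kg) over DN. Catalase (Cat), the peroxisomal enzyme, had means of 1233 ± 165 CPM in normal, 1252 ± 175 in DN, 1485 ± 148 under 20 mg/kg SIN and 1312 ± 137 under 40 mg/kg. The mitochondrial Sod2 and the secreted Sod3 had log2 fold changes of DN over normal of -0.08 (adjusted p = 0.574) and 0.34 (adjusted p = 0.298).

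Of the pentose phosphate enzymes, which supply NADPH, Tkt rose in all 3 diabetic groups. Transketolase was at 309.9, 301, 237 and 257 CPM in the normal rats and 436, 309.6, 419 and 509 in the DN rats. It was at 364, 411, 442 and 343 CPM in the SIN (20 mg/kg) rats and 438, 404, 383 and 346 in the SIN (40 mg/kg) rats. DN replicate 2 was level with the highest normal rat, and all SIN rats were above the normal rats. The log2 fold change over normal was 0.61 ± 0.16 (adjusted p = 0.0296) in DN, 0.49 ± 0.12 (adjusted p = 0.0433) at 20 mg/kg and 0.51 ± 0.12 (adjusted p = 0.0351) at 40 mg/kg. In DN the call was lost without DN replicate 1, 3 or 4 or normal replicate 3 or 4 (adjusted p from 0.0522 to 0.089). Transaldolase (Taldo1), which acts beside it, had means of 286 ± 15.96 CPM in normal, 308 ± 35.7 in DN, 279 ± 21.5 under 20 mg/kg SIN and 281 ± 16.5 under 40 mg/kg and did not pass the test.

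Osgin1, an oxidative stress induced growth inhibitor and NRF2 target, was at 429, 485, 299 and 390.4 CPM in the normal rats and 458, 566, 461 and 455 in the DN rats. It was at 277, 294, 425 and 381 CPM in the SIN (20 mg/kg) rats and 364, 344, 468 and 364 in the SIN (40 mg/kg) rats. All SIN (20 mg/kg) rats lay below all DN rats, and the log2 fold change over DN was -0.50 ± 0.15 (adjusted p = 0.27) at 20 mg/kg and -0.33 ± 0.13 (adjusted p = 0.243) at 40 mg/kg. Of the genes that make superoxide or peroxide, Nox4, the constitutively active oxidase of tubule cells, had means of 127 ± 29.2 CPM in normal, 74.2 ± 27.5 in DN, 125 ± 45.9 under 20 mg/kg SIN and 127 ± 26.3 under 40 mg/kg. Its log2 fold change was -0.76 ± 0.27 (adjusted p = 0.0728) for DN over normal, 0.75 ± 0.32 (adjusted p = 0.313) for SIN (20 mg/kg) over DN and 0.78 ± 0.26 (adjusted p = 0.216) for SIN (40 mg/kg) over DN, with overlapping rats throughout. Cybb and Cyba, the flavocytochrome subunits of the phagocyte oxidase, had log2 fold changes of DN over normal of -0.06 (adjusted p = 0.792) and -0.24 (adjusted p = 0.484). None of these 4 genes passed the edgeR test, and DESeq2 called Nox4 lower in DN than in normal and no other of them.

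**Figure D5:**
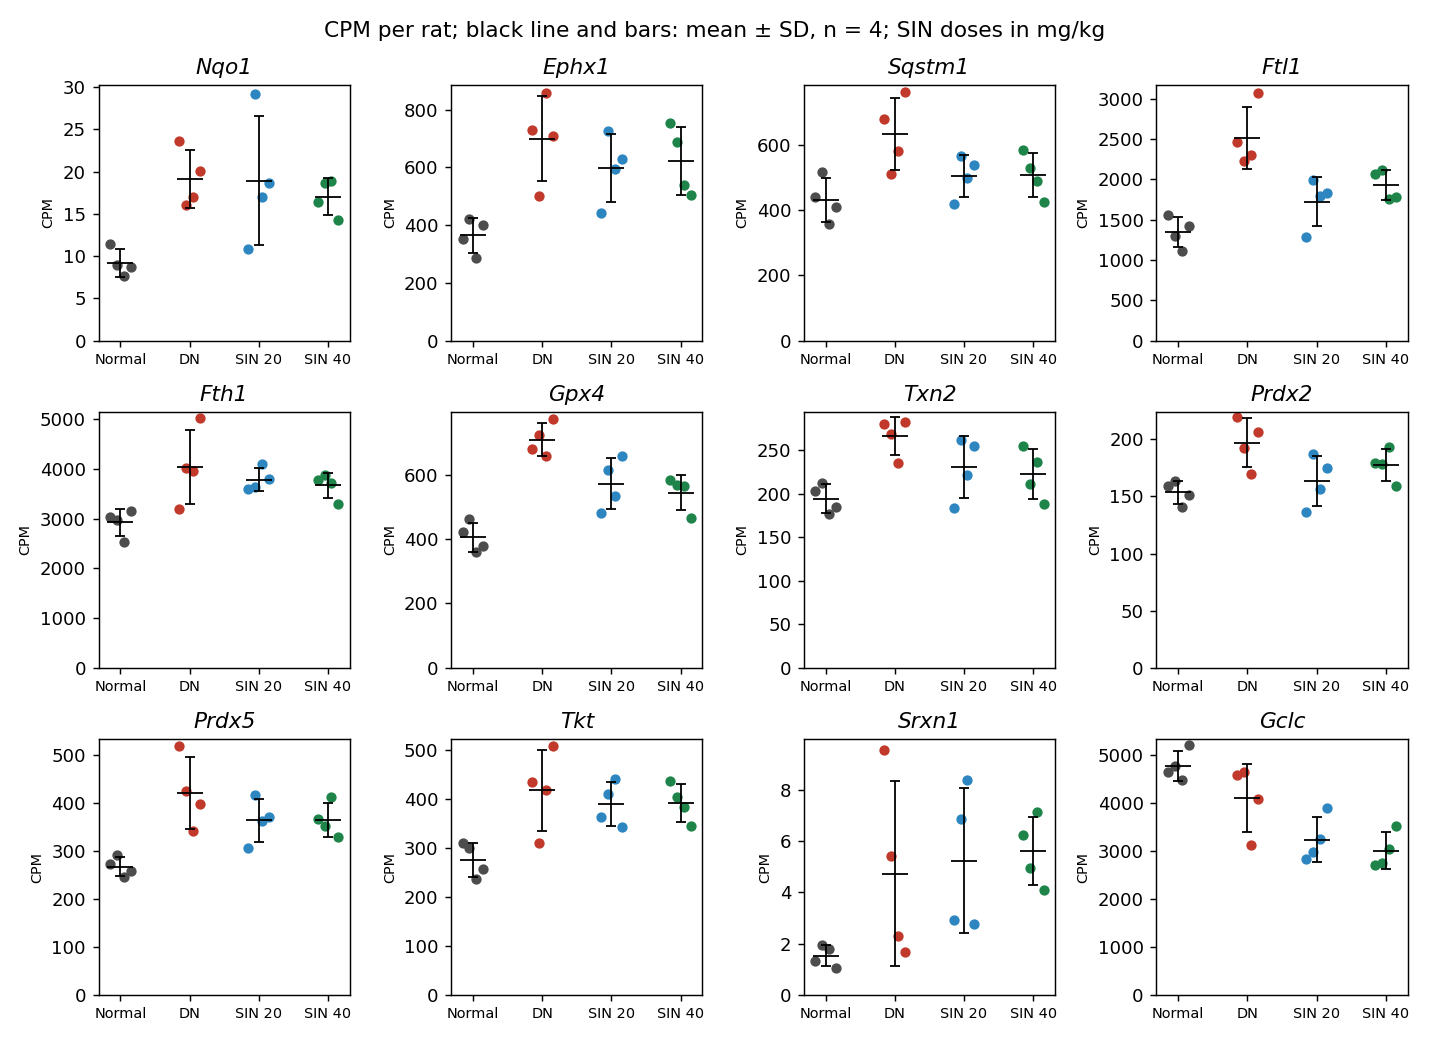
CPM in each rat for 11 members and for the row described as sulfiredoxin 1 (panel Srxn1), with the mean and SD of 4 rats in black and linear axes from 0. Gpx4 and Ftl1 are highest in the DN rats with the SIN rats below them, Ephx1 and Prdx5 are above normal in all 12 diabetic rats, and Gclc is below normal in all 8 SIN rats.

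Both SIN groups were also set beside the normal group, to see which members of treated diabetic rats still differed from healthy ones. In the SIN (20 mg/kg) group 6 of 39 members passed the test, 5 higher and 1 lower (15.4%, against 6.36% of all 15877 genes, 2.77% higher and 3.58% lower). They were Nqo1, Ephx1, Gpx4, Prdx5 and Tkt, higher, and Gclc, lower. In the SIN (40 mg/kg) group 6 passed, again 5 and 1 (15.4%, against 5.97% of all 15735 genes, 2.28% higher and 3.69% lower), namely Nqo1, Ephx1, Ftl1, Prdx5 and Tkt, higher, and Gclc, lower. These comparisons share the normal rats with each other and with DN over normal. The rats did not overlap the normal rats for 8 members at 20 mg/kg (20.5%, against 13.7% of all genes) and 10 at 40 mg/kg (25.6%, against 14.3%). DESeq2 called 8 members at 20 mg/kg (20.5%, against 10% of all genes) and 10 at 40 mg/kg (25.6%, against 10.2%), adding Hmox1 and Fth1 at 20 mg/kg and Fth1, Gpx4, Gclm and Cryz at 40 mg/kg, the last pair lower. At 20 mg/kg the number called by edgeR was 0 without SIN (20 mg/kg) replicate 2 or 3 or normal replicate 4, while 551, 582 and 555 of all genes were called in these fits and 1009 with all rats. It was 1 without SIN (20 mg/kg) replicate 4 or normal replicate 3 (2.56%, against 4.03% and 4.15% of all genes). Without normal replicate 1 it was 2 (5.13%, against 4.36%). At 40 mg/kg it was 2 without SIN (40 mg/kg) replicate 2 or normal replicate 3 or 4 (5.13%, against 2.89% to 3.93% of all genes), and 3 without SIN (40 mg/kg) replicate 1 or 3 (7.69%, against 5.55% and 3.34%), while Nqo1 and Gclc passed in all 14 alternatives. The other 10 calls of these 2 comparisons were each lost on the removal of any of 3 to 7 of the 8 rats, at an adjusted p of 0.0517 to 0.138.

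Between the SIN doses, 0 of 39 members passed the test of edgeR (0.00639% of all 15657 genes), and 0 did by DESeq2 (0.112% of all genes). At an unadjusted p under 0.05 there were 3 members (7.69%, against 4.98% of all genes): Cryz at -0.55 ± 0.25 (adjusted p = 0.961), Txn1 at -0.31 ± 0.11 (adjusted p = 0.961) and Ugdh at 0.34 ± 0.13 (adjusted p = 0.961) for 40 over 20 mg/kg on the log2 scale. For 0 members did the rats of the doses not overlap (3.31% of all genes). For Nqo1 the log2 fold change between doses was -0.16 ± 0.25 and for Hmox1 -0.34 ± 0.20.

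Other genes of the pathway were read from lists of NRF2 control genes, further NRF2 targets, thiol redox genes, oxidase genes and haem and iron genes. In DN over normal 12 of the 100 tested rose and 5 fell, which is 17% called. Of all genes 19.5% were called, 8.74% higher and 10.8% lower. The share called was near that of all genes, but more of these genes rose than fell. Of 35 further NRF2 targets 6 rose and 0 fell (17.1%), and of 32 thiol redox genes 5 rose and 1 fell (18.8%). Of 13 haem and iron genes 1 rose and 3 fell (30.8%), and of 13 control genes 0 rose and 1 fell (7.69%). Of 7 oxidase genes 0 passed, by edgeR or DESeq2, with 1 at an unadjusted p under 0.05 (36.9% of all genes). The smallest adjusted p were those of Gstz1 (0.79, adjusted p = 0.00359), Gstm7 (1.34, adjusted p = 0.00386) and Gstk1 (0.52, adjusted p = 0.00885), all glutathione S-transferases and higher, and of Cp (-0.98, adjusted p = 0.00542), the ferroxidase ceruloplasmin, and Ireb2 (-0.60, adjusted p = 0.00659), the iron regulatory protein 2, both lower. Rats did not overlap between DN and normal for any of the 5. Transferases of one class share sequence, so reads may be split between them.

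In SIN over DN 0 of 101 of these genes passed the test of edgeR at either dose (0% of all genes). At an unadjusted p under 0.05 there were 4 of the 101 higher and 12 lower at 20 mg/kg. The share of all genes was 15.4% there, 9.2% higher and 6.24% lower. At 40 mg/kg there were 8 higher and 9 lower, against 17.1% of all genes, 9.9% higher and 7.21% lower. DESeq2 called 1 higher and 1 lower at 20 mg/kg, where it called 1.57% of all genes, and 3 higher and 3 lower at 40 mg/kg, where it called 2.82%. Cul3, the scaffold of the ligase that takes up NRF2 with KEAP1, had log2 fold changes of 0.58 (adjusted p = 0.27) and 0.48 (adjusted p = 0.183), with every SIN rat above every DN rat. Ggt1, the brush border enzyme that splits glutathione outside the cell, had -0.53 (adjusted p = 0.27) and -0.67 (adjusted p = 0.148), with every SIN rat below every DN rat. Also among the smallest adjusted p at 20 mg/kg were Gsta3 (0.59, adjusted p = 0.27), Ugt1a6 (-0.49, adjusted p = 0.27) and Akr7a3 (-0.52, adjusted p = 0.273), enzymes of conjugation and aldehyde reduction. At 40 mg/kg they were Ggct (-0.86, adjusted p = 0.175), which degrades gamma-glutamyl peptides, Ncoa4 (0.67, adjusted p = 0.179), the receptor that takes ferritin to the lysosome, and Tfrc (0.67, adjusted p = 0.2), the transferrin receptor. None of these differences passed the edgeR test.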

How the data were processed

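RNA of the kidney was enriched for poly(A), made into TruSeq libraries and sequenced on an Illumina instrument by the authors, who trimmed the reads, mapped them to the rat genome by TopHat and deposited estimated counts per gene, not normalized. TopHat, Bowtie, RSEM and edgeR are named in the submitters' processing notes, and the step that gave the counts is not given in the sources used here. Of the nonzero estimated counts 74.3% were whole numbers, and all were rounded to whole counts. Of the columns, 4 libraries of rats that no label names, 1 mean of these and 4 group means were not used. Depth was 19616312 to 25217030 per rat, so a gene at 1 CPM rests on few reads.

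Counts were tested in edgeR 4.0.16 (quasi-likelihood test, TMM, filterByExpr over the 2 groups compared, two-sided, Benjamini-Hochberg adjustment over all genes tested, R 4.3.3) in 6 comparisons of 4 rats with 4, and the steps were tested on simulated data. Replicates are separate rats. The members, the other lists and the tests were chosen with earlier results of these data known, so no list is independent evidence. Rats' values were given for Nfe2l2, Keap1, Nqo1, Hmox1, Gclc, Gclm, Txnrd1 and the sulfiredoxin row, for members with an adjusted p under 0.05, and for those that did not overlap between DN and normal or SIN and DN at an unadjusted p under 0.05. From the other lists the 5 genes of smallest adjusted p were named in DN over normal and in each SIN over DN comparison, and for the far rat the 10 genes with the widest gap, 2 of which have no symbol. Alternatives were DESeq2 1.42.0, RLE scaling, no filter, a minimum of 10 counts in each rat, a joint fit of all 16 rats, a block for the replicate number and the removal of each rat. Protein sequences and Pgd were not analysed here.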

Additional observations from a re-analysis of the deposited data

Results flagged for a closer look

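In each group of 4 rats the highest or the lowest value of each member was compared with the nearest other rat by Dixon's ratio, at its 95% critical value. Of 160 groups 9 stood out, and about 8 would by chance, at 1 in 20. Hmox1 in DN replicate 1 was at 707.267 CPM, with the other DN rats at 5.57 to 11.3 CPM. Cryz in normal replicate 1 was at 732.224 CPM, with the others at 417 to 445 CPM. Gclm in SIN (20 mg/kg) replicate 2 was at 749.415 CPM, below the others at 1059 to 1100.1 CPM. Gpx4 in SIN (40 mg/kg) replicate 4 was at 463.596 CPM, below the others at 564 to 581 CPM. Prdx3 in SIN (40 mg/kg) replicate 1 was at 237.859 CPM, with the others at 206 to 211 CPM. Prdx4 in DN replicate 4 was at 20.5235 CPM, with the others at 15.7 to 16.4 CPM. Osgin1 in DN replicate 2 was at 565.719 CPM (others 455 to 461 CPM) and in SIN (40 mg/kg) replicate 3 at 468.101 CPM (others 344 to 364 CPM). Slc7a11 in DN replicate 3 was at 0.223681 CPM, with 0 in the other DN rats, a few counts in all.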

How the results depend on the processing

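As single rats were removed, the number of members called in DN over normal ranged from 5 to 10. That is 12.8% to 25.6% of members, against 4.81% to 23.6% of all genes. It ranged from 0 to 6 in SIN (20 mg/kg) over normal (0% to 15.4%, against 3.42% to 7.66% of all genes). In SIN (40 mg/kg) over normal it ranged from 2 to 8 (5.13% to 20.5%, against 2.89% to 6.37%). It was 0 in SIN over DN at both doses (0% to 0.0255% of all genes). The median member log2 fold change of DN over normal ranged from 0.042, without DN replicate 4, to 0.183. DESeq2 called 1 member in SIN (20 mg/kg) over DN (2.63%, against 1.57% of all genes). It called 3 in SIN (40 mg/kg) over DN (7.89%, against 2.82%) and 10 in SIN (40 mg/kg) over normal (25.6%, against 10.2%). With DN replicates 1 and 3 both left out, an alternative chosen after seeing the data, 4 members were called in DN over normal. That is 10.3% of members, against 2.3% of all genes.

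Same-numbered rats did not deviate together: correlations of their deviations from the group means ran from -0.239 to 0.244, with at most 1 of 4 pairs over 0.1 and at most 2 of 4 rats correlating best with their own number in any comparison. They share a number only. With the replicate block 5 members were called in DN over normal (12.8%, against 8.4% of all genes). In SIN (20 mg/kg) over normal 3 were called (7.69%, against 4.77%), and in SIN (40 mg/kg) over normal 10 (25.6%, against 7.98%).

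Over 850 gene-level alternatives of the genes named, 718 kept direction and side of the threshold, 102 lost the call, 15 gained it and 15 turned sign, none of these last ones called. In SIN (20 mg/kg) over DN, Nqo1 turned to 0.17 without SIN (20 mg/kg) replicate 1, 0.02 without replicate 3, 0.09 without DN replicate 1, 0.0009 without DN replicate 4 and 0.062 without DN replicates 1 and 3, with a range of -0.32 to 0.17 over single rats. Gclm turned to -0.0068, -0.0084 and -0.034 without SIN (20 mg/kg) replicate 1, replicate 4 and DN replicate 3, and to -0.021 without DN replicates 1 and 3, with a range of -0.034 to 0.16 over single rats. The sulfiredoxin row turned to -0.02, -0.17, -0.08 and -0.14 without SIN (20 mg/kg) replicate 2, replicate 3, DN replicate 3 and DN replicate 4, and in SIN (40 mg/kg) over DN to -0.036 without DN replicate 4, with ranges of -0.17 to 0.74 and -0.036 to 0.83 over single rats. Hmox1 turned to 0.048 in SIN (20 mg/kg) over DN without DN replicates 1 and 3. The cause was not tested beyond the rats left out.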
